A study of Nicotiana tabacum with 15 samples.

Results

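In roots of tobacco (Nicotiana tabacum) seedlings, 100 of 69500 gene models were examined that stood apart in the hybrid GJ and lay near the parents, on average, in the hybrid KJ. GJ is the cross of the female parent G (cultivar G70) with the male parent J (Jiucaiping No.2, JCP), and KJ is the cross of the female parent K (cultivar K326) with the same J. RNA of the 5 genotypes GJ, KJ, G, J and K was sequenced from young roots at the seedling stage, with 3 libraries per genotype and 15 in all. The study asked which genes depart from the parents in hybrids whose root systems outgrow them. The sample titles name leaf tissue, whereas the tissue entry of the labels and the study's methods give root. K326 is a parent of KJ only, but its libraries were counted among the parents in the choice of genes.

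The values are FPKM, in which the fragments of a gene are scaled by its length and by the mapped fragments of the library, and differences are given on the scale of log2(FPKM + 1). A gene was kept when it was above 0.2 FPKM in all 3 GJ libraries, when these lay all above or all below the 9 parental libraries, and when the KJ mean lay within 0.3 of the mean of the G, J and K means. This left 1052 genes, 733 of them higher and 319 lower in GJ. The 100 members are those with the largest absolute difference between the GJ mean and the mean of the 3 parental means. Members were thus chosen by the FPKM of the GJ, KJ and parental libraries themselves, so the differences of GJ from the parents are a description and carry no test.

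Heterosis is the superior growth of a hybrid over its parents. A gene in the hybrid can be expressed between its parents (additively), at the level of 1 of them (dominance) or outside the range of both (overdominance). By the way they were chosen, the members lay outside the range of the parental libraries, but the choice set no limit on p or on fold change. The study sorted into these kinds only genes that passed its limits on both. The members are therefore not overdominant by the study's definition merely through being chosen. Tobacco is an allotetraploid that carries 2 related ancestral genomes, so many genes exist as near-identical copies between which short reads can be divided uncertainly. The ID of a gene model holds the number of the scaffold (a continuous stretch of assembled genome) and the number of the gene along it, which gives neighbouring genes without any further annotation.

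The files pair the IDs with no gene name, and the RefSeq table at hand held 0 of these IDs, so the members are given by ID without function or sequence, and the root or leaf identity of the samples was not checked against marker genes. The summed FPKM was 801594 to 827438 per library, and 44445 to 45589 genes were above 0. Correlations across genes between libraries of a genotype were 0.915 to 0.983, and no pair of libraries held the same values. The files give no read counts, so the depth per gene is unknown. It is not stated if 1 plant or several went into each library, and p-values therefore measure the spread between these libraries. In whole roots, fewer cells of a type and less RNA per cell cannot be told apart.

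Of the 100 members, 78 lay above and 22 below the parents in GJ. All 3 GJ libraries lay above the 9 parental libraries in 5.76% and below them in 9.98% of the 37232 genes tested, those that reached 1 FPKM in 3 or more libraries, and nothing is read from the members' count, because it was fixed by the choice. This limit on low values was passed by 93 members (71 of 78 higher and 22 of 22 lower). The 78 higher members differed from the parents by 0.66 to 2.18 on the log2 scale (median 0.80). Their ratios of mean FPKM, GJ over parents, were 1.53 to 48.9 (median 1.93). The ratio holds no added 1 and orders the genes differently, so the ends of these ranges are not the same genes. The 22 lower members differed by -2.73 to -0.69 (median -0.92), and their ratios were 0.241 to 0.627 (median 0.471). Differences of at least 1 on the log2 scale were found in 15 higher and 9 lower members.

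**Figure D1:**
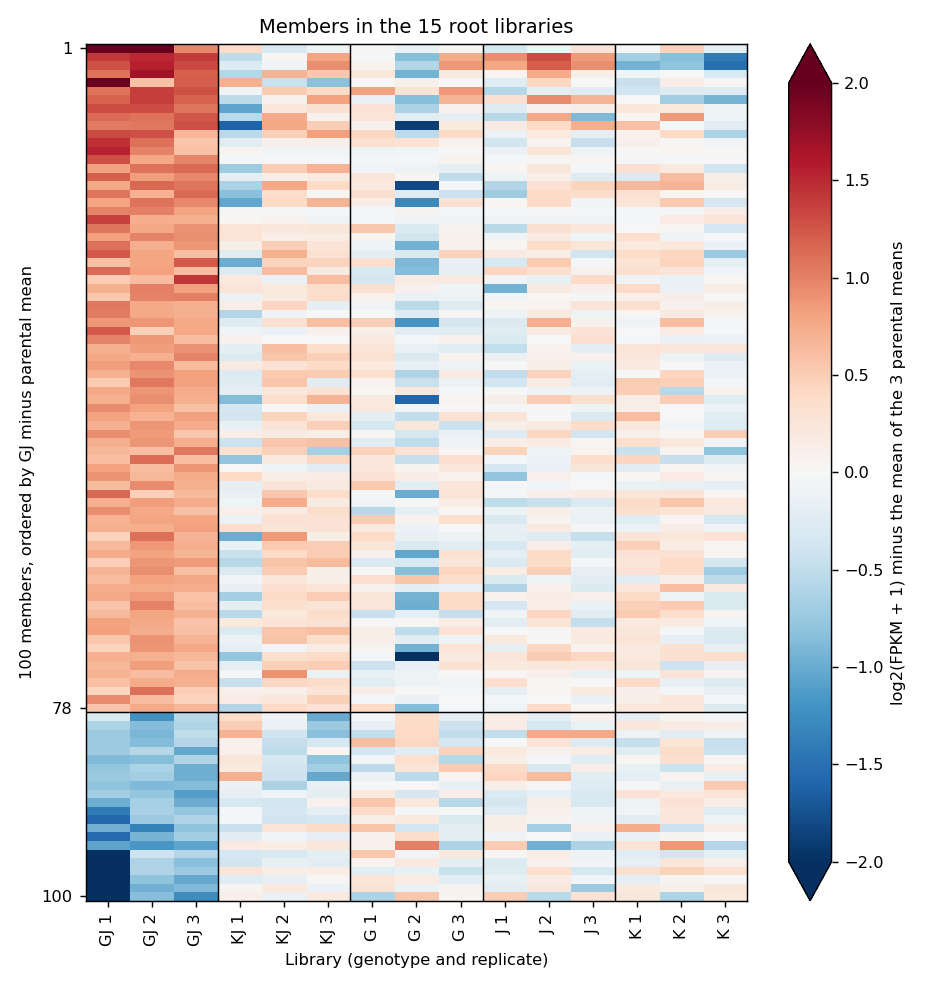
Difference of log2(FPKM + 1) from the mean of the 3 parental means for the 100 members (rows, ordered by the mean of GJ) in each of the 15 libraries (columns); red is higher and blue lower, and colours end at -2 and 2. The 78 members above the line are red in all 3 GJ columns and the 22 below it are blue, whereas KJ 1 is mostly blue and KJ 2 and KJ 3 mostly pale red in the upper rows.

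The members were mostly genes of low to middle expression. In the parents, 14 of the higher members had a mean under 1 FPKM, 38 had 1 to 10 FPKM, 23 had 10 to 50 FPKM and 3 had at least 50 FPKM. None of the lower members was under 1 FPKM, while 12 had 1 to 10, 5 had 10 to 50 and 5 at least 50 FPKM. The study placed most expressed genes between 1 and 50 FPKM as well, so nothing particular to the members is read from these counts. The minimum of 0.2 FPKM in GJ and the added 1 also bear on them. The median SD of the 3 GJ libraries on the log2 scale was 0.158 in the higher and 0.255 in the lower members, against 0.166 over the genes tested. The choice bears on this SD, since all 3 GJ libraries had to lie beyond the parents. The gap between GJ and the nearest parental library was 0.0065 to 0.78 in the higher and 0.0045 to 0.58 in the lower members, so for some members the groups only just failed to overlap.

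Around the last rank the choice was narrow. Nitab4.5_0000790g0120 (0.667) and Nitab4.5_0000342g0090 (0.663) held ranks 99 and 100, and Nitab4.5_0004587g0050 and Nitab4.5_0002108g0080, both at 0.660 on the log2 scale, followed just outside. All 4 were higher in GJ.

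The largest rise was that of Nitab4.5_0000386g0150. It had 11.61, 9.38 and 2.20 FPKM in GJ and 1.17, 0.34 and 0.54 FPKM in KJ, against a lowest, median and highest value of 0.32, 0.61 and 1.26 FPKM in the 9 parental libraries. All GJ libraries were above every other library, but GJ 3 was far below GJ 1 and GJ 2. The GJ mean was 7.73 ± 4.92 FPKM (SD, n = 3), the difference from the parents was 2.18 on the log2 scale, and without GJ 1 it was 1.80. Nitab4.5_0006196g0030 also varied within GJ, with 16.86, 5.33 and 8.76 FPKM in GJ, 5.95, 2.11 and 1.40 FPKM in KJ, and 2.12 to 4.62 FPKM (median 3.26) in the parents. KJ 1 lay above GJ 2 in this gene, so the hybrids overlapped.

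Nitab4.5_0011634g0010 and Nitab4.5_0026736g0010 were the most strongly expressed of the higher members and followed the same order of genotypes. Nitab4.5_0011634g0010 had 173.16, 184.81 and 171.18 FPKM in GJ and 45.08, 65.65 and 111.70 FPKM in KJ. In the parents it had 62.77, 35.23 and 108.06 FPKM in G, 123.49, 160.15 and 116.71 FPKM in J, and 39.53, 35.22 and 23.43 FPKM in K. Its GJ libraries were close together and lay just above J 2, whereas J was above K in every library.

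In Nitab4.5_0026736g0010 the level was 321.34, 388.43 and 330.29 FPKM in GJ and 108.53, 123.92 and 252.07 FPKM in KJ. The parents had 138.60, 87.39 and 240.92 FPKM in G, 226.65, 306.62 and 251.77 FPKM in J, and 67.90, 75.51 and 45.85 FPKM in K. Again J 2 was the parental library nearest to GJ, K was lowest, and KJ 3 was far above KJ 1 and KJ 2. The differences of GJ from the mean of the 3 parents were 1.44 for Nitab4.5_0011634g0010 and 1.38 for Nitab4.5_0026736g0010 on the log2 scale. From the mean of G and J, the parents of this cross, they were only 0.95 and 0.84, since the low level in K widened the difference from all 3 parents.

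Nitab4.5_0005330g0080 had the widest gap to the parents of all members, 0.78 on the log2 scale. Its values were 92.65, 92.61 and 79.28 FPKM in GJ and 17.40, 43.66 and 46.04 FPKM in KJ, against 23.58 to 45.75 FPKM (median 39.50) in the 9 parental libraries. The groups GJ and parents were far apart, and KJ was within or close to the parental range except in KJ 1, which was below it. Mean FPKM was 88.2 ± 7.71 in GJ, against 36.3 ± 11.4 in G, 36.8 ± 5.26 in J and 40.2 ± 4.71 in K (SD, n = 3 each).

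The next rises were of 1.04 to 1.32 on the log2 scale. Nitab4.5_0000154g0310 had 46.13, 69.59 and 49.90 FPKM in GJ and 13.96, 34.40 and 31.32 FPKM in KJ, against 10.46 to 35.92 FPKM (median 21.98) in the parents. Nitab4.5_0001143g0020 had 25.35, 29.26 and 25.38 FPKM in GJ and 7.13, 11.30 and 19.23 FPKM in KJ, against 5.14 to 21.36 FPKM (median 10.62). In both genes GJ was above every other library and KJ 1 was the lowest of the hybrid libraries. Nitab4.5_0000329g0060 (1.16) had 32.35, 31.48 and 35.18 FPKM in GJ and 9.45, 24.89 and 15.11 FPKM in KJ, against 7.24 to 26.62 FPKM in the parents. Nitab4.5_0000078g0090 (1.13), Nitab4.5_0007589g0040 (1.09) and Nitab4.5_0002795g0080 (1.04) were at lower levels, with mean FPKM of 9.77 ± 1.06, 13.5 ± 3.41 and 3.51 ± 1.38 in GJ (SD, n = 3).

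A few higher members were listed near 0 outside GJ. Nitab4.5_0005655g0070 had 1.51, 0.75 and 1.00 FPKM in GJ, was listed at 0 in all 3 KJ libraries and had at most 0.07 FPKM in any parent. This is the member with the ratio of 48.9, which rests on parental values of a few hundredths of an FPKM. Nitab4.5_0003952g0040, named here after its values were seen, had 1.05, 1.07 and 0.79 FPKM in GJ, 0 in KJ and at most 0.12 FPKM in the parents. At these levels the added 1 keeps the log2 difference small, and neither gene passed the limit on low values.

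The steadiest member was Nitab4.5_0002053g0060, with 30.46, 30.61 and 30.30 FPKM in GJ, an SD of 0.0071 on the log2 scale. KJ had 15.88, 22.91 and 21.79 FPKM, and the parents 11.48 to 27.73 FPKM (median 19.21). GJ lay above all of them, with K 2 nearest.

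**Figure D2:**
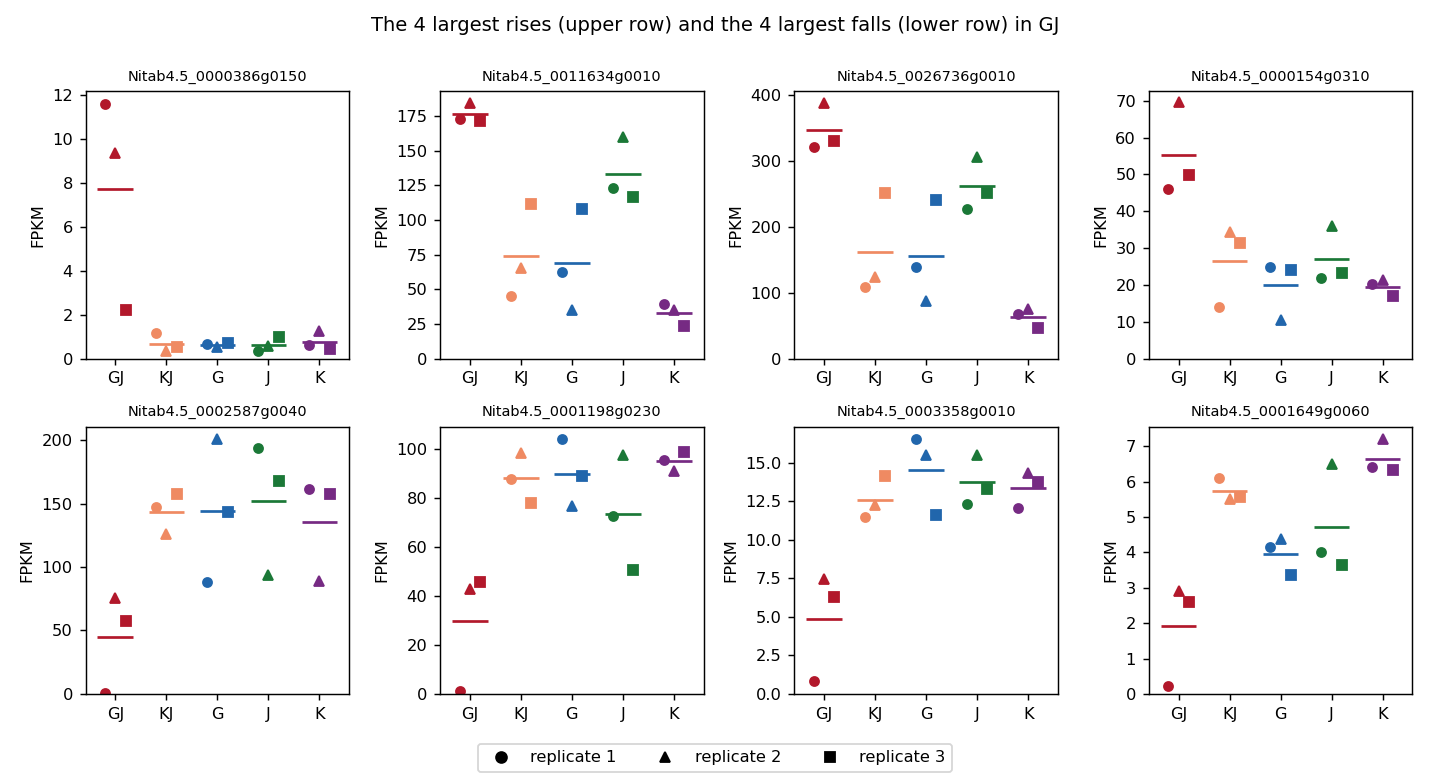
FPKM of the 4 members with the largest rise (upper row) and the 4 with the largest fall (lower row) in each library by genotype; marker shapes give the replicate and bars the mean of 3 libraries, and each axis starts at 0. In the lower row GJ 1 is near 0, for example 1.01 FPKM in Nitab4.5_0002587g0040, while GJ 2 and GJ 3 with 75.91 and 57.43 FPKM lie closer to the parents.

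The largest falls rested on GJ 1. Nitab4.5_0002587g0040 had 1.01, 75.91 and 57.43 FPKM in GJ and 147.49, 125.72 and 157.51 FPKM in KJ, against a lowest, median and highest value of 88.12, 157.17 and 200.46 FPKM in the parents. GJ 1 was close to 0 and the other 2 GJ libraries were below every parent. The difference from the parents was -2.73 on the log2 scale, and -1.05 without GJ 1. It had the largest SD over the GJ libraries of all members, 2.93 on the log2 scale.

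Nitab4.5_0001198g0230 behaved likewise, with 1.26, 42.80 and 45.62 FPKM in GJ and 87.85, 98.40 and 77.92 FPKM in KJ, against 50.80, 91.06 and 104.01 FPKM as the lowest, median and highest parental value. Its difference of -2.36 on the log2 scale was -0.92 without GJ 1. Nitab4.5_0003358g0010 had 0.86, 7.45 and 6.28 FPKM in GJ and 11.46, 12.25 and 14.13 FPKM in KJ, against 11.60 to 16.56 FPKM (median 13.74) in the parents. In all 3 genes GJ 1 stood apart from GJ 2 and GJ 3, and all KJ libraries were above all GJ libraries.

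The same held for 6 of the 22 lower members, in which the GJ libraries spanned more than 1 on the log2 scale. Besides the 3 genes above these were Nitab4.5_0001649g0060, Nitab4.5_0003268g0010 and Nitab4.5_0012748g0020. Relative to the mean FPKM of the parents, GJ 1 was at 0.702% to 15.3% (median 5.25%), GJ 2 at 49.6% to 73.0% (median 55.4%) and GJ 3 at 39.9% to 64.6% (median 50.6%). The KJ libraries of these genes were at 74.0% to 119.2% of the parental mean. The other 16 lower members had medians of 47.9%, 50.3% and 45.3% of the parental mean in GJ 1, GJ 2 and GJ 3. A low GJ 1 was found among them too, at 13.3% in Nitab4.5_0000496g0280 (37.2% and 49.2% in GJ 2 and GJ 3), at 15.1% in Nitab4.5_0003674g0090 (49.9% and 42.9%) and at 27.6% in Nitab4.5_0002715g0140 (56.6% and 61.6%), so the limit of 1 on the log2 scale does not separate all such genes. Of the 78 higher members only 2 spanned more than 1 on the log2 scale over the GJ libraries, the Nitab4.5_0000386g0150 and Nitab4.5_0006196g0030 described above.

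Among the other falls, Nitab4.5_0002157g0080 (-1.09) was steady in GJ. It had 0.97, 0.83 and 0.97 FPKM in GJ and 3.59, 3.55 and 3.80 FPKM in KJ, while the parents ranged from 1.10 to 7.24 FPKM (median 3.40). GJ lay only just below J 2, the lowest parental library, although the means differed by a factor of 3.86. Nitab4.5_0000496g0280 (-1.06) had 0.42, 1.18 and 1.56 FPKM in GJ and 2.60, 2.98 and 2.71 FPKM in KJ, against 2.65 to 4.27 FPKM in the parents. Nitab4.5_0002715g0140 (-0.97) had 3.24, 6.64 and 7.22 FPKM in GJ and 11.49, 8.58 and 8.94 FPKM in KJ, against 9.30 to 13.72 FPKM. In these 2 genes, too, GJ 1 was the lowest library of all. Nitab4.5_0002496g0050 (-1.04), Nitab4.5_0003674g0090 (-0.95) and Nitab4.5_0000312g0130 (-0.88) completed the 12 largest falls, with mean FPKM of 0.570 ± 0.295, 1.02 ± 0.524 and 4.79 ± 0.760 in GJ (SD, n = 3), against means over the 3 parents of 2.34, 2.84 and 9.91 FPKM.

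The position of the members, as the ID gives it, was not used in their choice. The 100 members carried 93 scaffold numbers, and 4 of these held 2 or more members, 11 in all. The scaffold Nitab4.5_0000143 held 4 higher members, Nitab4.5_0000143g0370, Nitab4.5_0000143g0420, Nitab4.5_0000143g0510 and Nitab4.5_0000143g0520. The scaffold Nitab4.5_0003893 held 3 higher members (g0010, g0030 and g0040), the scaffold Nitab4.5_0000342 held 2 higher members (g0090 and g0120), and the scaffold Nitab4.5_0005655 held the lower Nitab4.5_0005655g0030 beside the higher Nitab4.5_0005655g0070.

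The nearest gene models before and after each member were compared as its neighbours. Of 161 neighbours that are no members, 100 were tested, and limma called 4 of them (p no higher than 0.05 after Benjamini-Hochberg adjustment, with a log2 difference of 1 or more in either direction), all lower in GJ than in the mean of the 3 parents. Over all genes tested this comparison called 3.6%, with 1.9% higher and 1.7% lower. By direction, none of the 100 neighbours was called higher and 4 were called lower, of which 3 were among the 29 neighbours of lower members and 1 among the 71 neighbours of higher members. Neighbours of higher members had a median difference of -0.05 on the log2 scale and those of lower members -0.17, against -0.08 over all genes tested.

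3 of the 4 called neighbours, however, lay beside the 2 members with the largest falls. Nitab4.5_0001198g0220 had 0, 1.61 and 2.17 FPKM in GJ, against 2.53 to 5.19 FPKM in the 9 parental libraries (log2 difference -1.19, SE 0.281, adjusted p = 0.0141 by limma). Nitab4.5_0001198g0240 had 0, 3.17 and 4.31 FPKM in GJ (log2 difference -1.37, SE 0.405, adjusted p = 0.0345 by limma). Nitab4.5_0002587g0050 had 0, 7.83 and 4.58 FPKM in GJ (log2 difference -1.50, SE 0.490, adjusted p = 0.0497 by limma). All 3 were listed at 0 in GJ 1 alone among the 15 libraries, and without GJ 1 only 1 of the neighbours was called.

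The fourth, Nitab4.5_0000636g0120, was low in both hybrids. It had 2.14, 7.13 and 4.87 FPKM in GJ and 1.45, 1.97 and 1.10 FPKM in KJ, against 8.69 to 43.61 FPKM in the parents (log2 difference of GJ -2.02, SE 0.380, adjusted p = 0.00509 by limma). The member beside it, Nitab4.5_0000636g0130, named for this neighbour, lay above the parents in GJ, with 1.23, 2.24 and 1.75 FPKM in GJ and 0.31, 1.30 and 0.33 FPKM in KJ, against 0.15 to 1.22 FPKM in the parents.

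Low values in GJ 1 extended along both scaffolds. On the scaffold Nitab4.5_0002587, between g0020 and g0110, all 6 other tested genes were under 0.5 FPKM in GJ 1. Their median level relative to the parental mean was 0% in GJ 1, 48.9% in GJ 2 and 40.1% in GJ 3. For example, Nitab4.5_0002587g0080 had 0, 27.77 and 24.99 FPKM in GJ and 55.09, 68.67 and 71.05 FPKM in KJ.

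On the scaffold Nitab4.5_0001198, between g0120 and g0340, 14 of 15 other tested genes were under 0.5 FPKM in GJ 1. Their median log2 differences from the parents were -2.91 in GJ 1, -0.82 in GJ 2 and -0.59 in GJ 3, and their median levels were 0.0186%, 48.1% and 55.3% of the parental mean. Nitab4.5_0001198g0120, for example, had 0.13, 126.47 and 137.94 FPKM in GJ and 256.16, 260.84 and 221.33 FPKM in KJ. Its parental values were 345.31, 380.85 and 258.55 FPKM in G, 68.54, 61.58 and 33.85 FPKM in J, and 292.91, 318.97 and 295.32 FPKM in K. In this gene GJ 2 and GJ 3 thus lay between G and J, and only GJ 1 lay below both. The exception was Nitab4.5_0001198g0320, with 3.61, 5.00 and 3.06 FPKM in GJ.

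The first genes of this scaffold had a further pattern, in which J was at 0 as well. Of 9 tested genes between g0010 and g0110, 8 were under 0.5 FPKM in GJ 1, and 8 were under 0.5 FPKM in all 3 J libraries. Nitab4.5_0001198g0010 had 0, 19.53 and 16.50 FPKM in GJ, 28.83, 28.35 and 33.25 FPKM in KJ, 29.14, 23.82 and 25.25 FPKM in G, and 0 in all 3 J libraries. The limits of these stretches and the genes named in them were chosen after their values were seen, and they are a description. For the other 4 of the 6 members that spanned more than 1 over the GJ libraries, fewer genes of the scaffold were tested. The median of GJ 1 on the log2 scale showed no such run on Nitab4.5_0003358 (0.03, 4 other tested genes) and Nitab4.5_0003268 (0.43, 7 genes). On Nitab4.5_0001649 (-0.47, 2 genes) and Nitab4.5_0012748 (1.62, 1 gene) too few genes were tested to show a run or its absence.

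**Figure D3:**
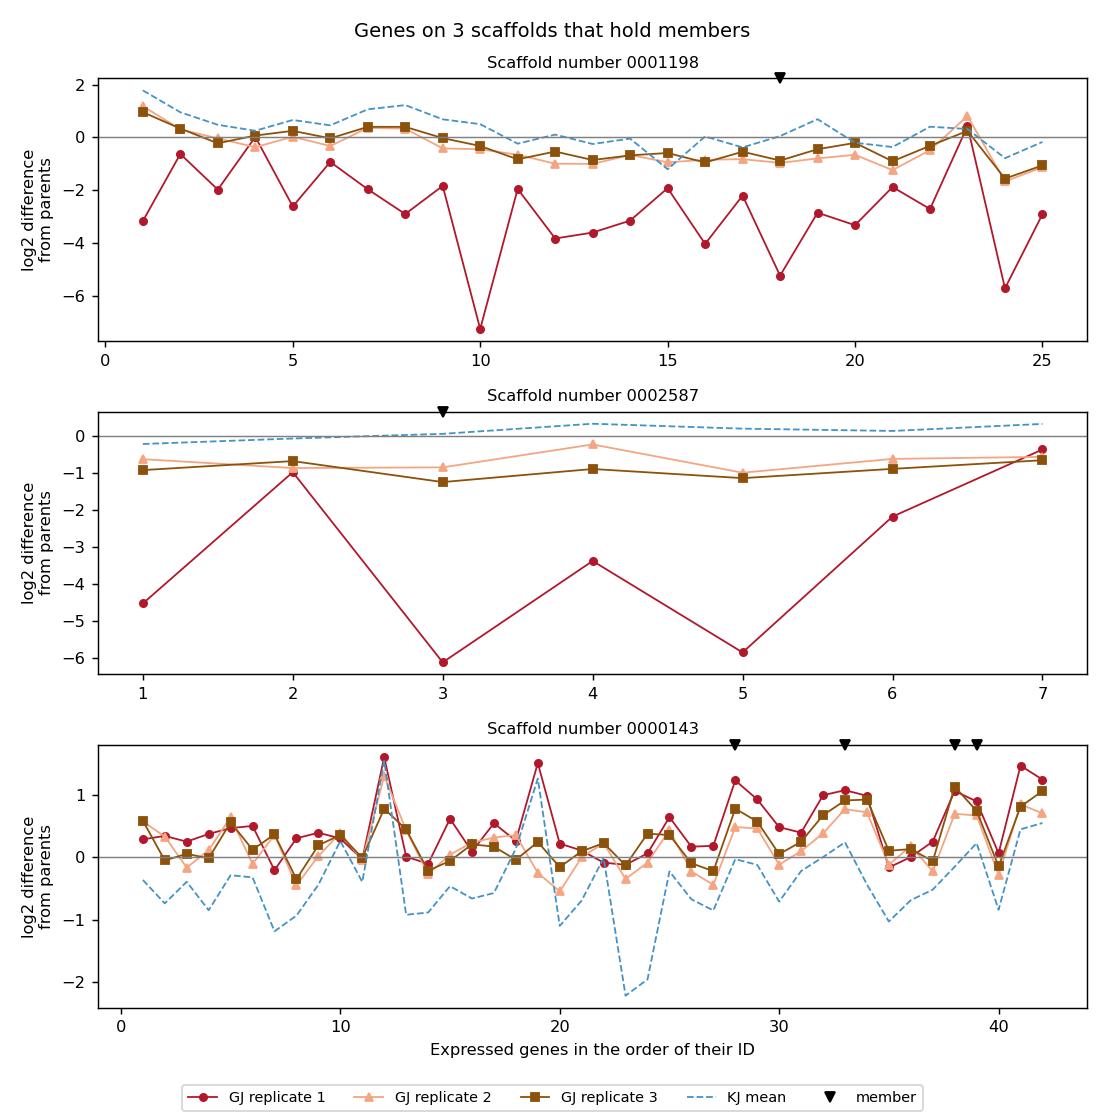
Difference of log2(FPKM + 1) from the mean of the parental means along 3 scaffolds, with tested genes in the order of their number on the horizontal axis; red circles are GJ 1, light triangles GJ 2, brown squares GJ 3 and the blue dashed line the KJ mean, and black triangles mark members. On Nitab4.5_0001198 and Nitab4.5_0002587 GJ 1 runs far below GJ 2 and GJ 3 in most genes. On Nitab4.5_0000143 the 4 members are drawn with 38 other tested genes, which have a median of 0.18 in GJ and -0.49 in KJ.

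The scaffold Nitab4.5_0000143 showed a smaller shift shared by the 3 GJ libraries. Its 4 members had mean FPKM of 40.6 ± 11.1 (g0370), 19.5 ± 2.16 (g0420), 94.5 ± 14.8 (g0510) and 12.3 ± 1.07 (g0520) in GJ (SD, n = 3), against means over the 3 parents of 22.1, 10.1, 49.0 and 6.94 FPKM. The 11 other tested genes between g0370 and g0580 had median log2 differences of 0.48 in GJ 1, 0.18 in GJ 2 and 0.25 in GJ 3, and 8 of them were above the parental mean. Over the 27 tested genes before g0370 the median was 0.17, and 20 of them were above the parental mean, against 41.6% of all genes tested. There the 3 GJ libraries had medians of 0.27, 0.04 and 0.12 from the mean of the parents. These lay between G (-0.01, -0.44 and -0.35) and J (0.53, 0.63 and 0.56), the parents of this cross. K, which is no parent of GJ, had medians of -0.33, -0.08 and -0.28. The split at g0370 was chosen after the values were seen, and both stretches are a description. The median in KJ was -0.44 after and -0.57 before this point, below that of all genes tested in KJ (-0.23).

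On the scaffold Nitab4.5_0003893, Nitab4.5_0003893g0030 had 46.22, 57.08 and 53.19 FPKM in GJ and 20.46, 31.16 and 28.33 FPKM in KJ. The parents had 37.92, 25.96 and 39.75 FPKM in G, 13.96, 18.40 and 17.84 FPKM in J, and 15.89, 17.63 and 17.56 FPKM in K. GJ was above all libraries and G above J and K in each library. Nitab4.5_0003893g0010 followed the same order, with 4.62 ± 0.359 FPKM in GJ, against 3.47 ± 0.402 in G, 1.95 ± 0.211 in J and 1.96 ± 0.668 in K, while Nitab4.5_0003893g0040 had 5.05 ± 0.736 FPKM in GJ, with 2.06 ± 0.609 in G and 3.27 ± 0.219 in K (SD, n = 3 each).

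The pairs on the other scaffolds with 2 members were of low to middle level. Nitab4.5_0000342g0090 had 20.29, 23.21 and 21.77 FPKM in GJ and 8.54, 18.01 and 16.55 FPKM in KJ, against 6.86 to 17.91 FPKM (median 13.76) in the parents. Nitab4.5_0000342g0120 had 5.80, 8.20 and 7.46 FPKM in GJ and 3.33, 3.78 and 4.51 FPKM in KJ, against 1.58 to 5.60 FPKM (median 4.20). In both, G 2 was the lowest parental library and KJ 1 the lowest hybrid library. The lower Nitab4.5_0005655g0030 had a mean of 4.51 ± 0.520 FPKM in GJ (SD, n = 3) and 8.68, 5.62 and 6.12 FPKM in KJ, against 5.60 to 12.92 FPKM (median 8.03) in the parents, so the gap to the lowest K libraries was small.

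The choice of members set no condition on the differences between parents, but it used all parental values, since GJ had to lie beyond all 9 libraries and was ranked by its distance from their mean. Calls of members between parents, from the limma fit of all 37232 genes, are therefore a description beside the share over all genes, and nothing is read from them. Between G and J, none of the 93 tested members was called in either direction, against 0.943% of all genes (0.465% higher and 0.478% lower in G). At an unadjusted p under 0.05 there were 12 of 93 members, where 8.3% of all genes passed this limit. limma without its trend and robust options also called none of the members here or between K and G. The log2 difference of G from J in Nitab4.5_0003893g0030 was 0.99, just under the fold limit of 1.

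Between K and J, 2 members were called, both lower in K, against 0.416% of all genes (0.279% higher and 0.137% lower in K). They were Nitab4.5_0026736g0010 (log2 difference of K from J -2.05, SE 0.359) and Nitab4.5_0011634g0010 (-2.01, SE 0.373), whose values by library are given above. Each had K below J in all 9 pairs of libraries. Both calls were lost without any 1 of J 1, J 2, J 3, K 1 or K 3, and 1 was lost without K 2 or GJ 3. At an unadjusted p under 0.05 there were 7 of 93 members, against 8.33% of all genes.

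Between K and G, none of 93 members was called, against 0.808% of all genes (0.416% higher and 0.392% lower in K), and 11 had an unadjusted p under 0.05, against 11.5% of all genes. The log2 difference of K from G in Nitab4.5_0003893g0030 was -0.96. limma called 12 higher and 8 lower members in GJ against the mean of the 3 parents, beside 3.6% of all genes (1.9% higher and 1.7% lower), and 11 higher and 7 lower against the mean of G and J, beside 4.56% (2.4% higher and 2.16% lower). These contrasts were used directly in the choice.

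G 2 was the lowest parental library in 30 of 78 higher members (38.5%), against 25.1% of all genes tested and 65.2% of the 655 kept genes outside the 100 that were higher in GJ. In Nitab4.5_0000078g0090, for example, G 2 had 0.31 FPKM, where G 1 and G 3 had 4.22 and 4.61 FPKM. The highest parental library was J 2 in 18, K 1 in 15, G 1 in 14 and K 2 in 12 of 78, while over all genes tested G 1 (23.7%) and K 2 (24.0%) were most often highest. In the 655 other kept genes these shares were 15.6% for J 2, 22.6% for K 1, 16.9% for G 1 and 19.4% for K 2.

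The libraries of KJ did not behave alike in these genes, so the description of a change in GJ alone holds for the KJ mean only. In the 78 higher members the median log2 difference from the parents was 0.81, 0.86 and 0.74 in GJ 1, GJ 2 and GJ 3, and -0.20, 0.32 and 0.30 in KJ 1, KJ 2 and KJ 3. Over all genes tested the KJ medians were -0.29, -0.20 and -0.18. In the median, KJ 2 and KJ 3 thus lay above the parents. KJ 1 lay below them, though less far than over all genes tested. The limit on the KJ mean used these values. Where KJ 2 and KJ 3 were well above that limit, KJ 1 had to be lower, and nothing is read from this order.

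KJ 1 was the lowest KJ library in 59 of 78 higher members, against 46.5% of all genes tested and 82.6% of the 655 kept genes outside the 100 that were higher in GJ. The lowest place of KJ 1 is thus shared by the kept genes higher in GJ, and it rests on KJ values that the rule used. The highest KJ library was KJ 2 in 33 and KJ 3 in 34 of 78 higher members. These shares were 19.4% and 74.7% in the 655 other kept genes, and 30.9% and 38.9% over all genes tested. KJ 2 lay above all 9 parental libraries in 30 of 78 and KJ 3 in 26 of 78, but KJ 1 in 3. Over all genes tested the shares were 13.1% in KJ 2, 16.0% in KJ 3 and 13.8% in KJ 1, and in the 655 other kept genes they were 36.9%, 65.6% and 9.47%. The mean of KJ 2 and KJ 3 was more than 0.3 above the parents in 42 of 78 higher members (53.8%), against 18.5% of all genes tested and 29.2% of the 655 other kept genes. The limit of 0.3 was thus met in these 42 genes only through KJ 1, and without KJ 1 in the choice 47 of the 100 members remained. KJ 2 and KJ 3 reached the lowest GJ library in 10 and 5 of 78 higher members.

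In the 22 lower members the medians were -0.97, -0.83 and -0.82 in GJ 1, GJ 2 and GJ 3, and 0.07, -0.23 and -0.19 in KJ 1, KJ 2 and KJ 3. The mean of KJ 2 and KJ 3 was more than 0.3 below the parents in 9 of 22 (40.9%), the same share as over all genes tested (40.9%). KJ 3 reached the highest GJ library in 6 of 22 lower members, and KJ 1 and KJ 2 in 0. In the 297 other kept genes lower in GJ these shares were 25.6%, 44.8% and 63.6% in KJ 1, KJ 2 and KJ 3. The KJ mean lay inside the range of the 9 parental libraries in 70 of 78 higher and 20 of 22 lower members, against 49.3% of all genes tested, a count that the limit of 0.3 on that mean bears on directly. Whether KJ 1 differs from KJ 2 and KJ 3 by plant or by library was not tested.

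**Figure D4:**
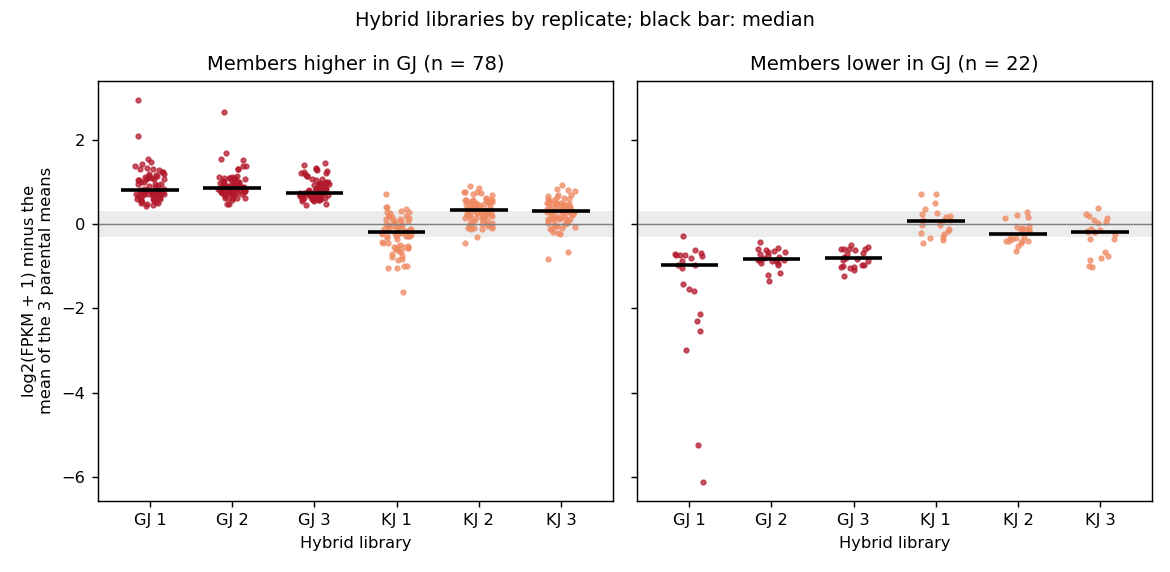
Difference of log2(FPKM + 1) from the mean of the 3 parental means in each GJ and KJ library for the 78 higher (left) and 22 lower members (right); each point is a gene, black bars are medians, and the grey band is the limit of 0.3 set for the KJ mean. In the left panel KJ 1 has a median of -0.20, and KJ 2 and KJ 3 of 0.32 and 0.30, while in the right panel 6 genes of GJ 1 lie below -2.

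The scale of the KJ libraries also bore on the choice. The median of all genes tested was -0.08 in GJ and -0.23 in KJ relative to the parents in the deposited FPKM, and 0.0023 and -0.0002 after median-of-ratios scaling. After this scaling all 78 higher members stayed higher in GJ, with a median of 0.87, but their median in KJ became 0.36, where it was 0.14 as deposited. Then 48 of the 100 members were within the limit of 0.3 in KJ, and 61 after quantile normalization. Fewer members met the limit where KJ was scaled to the parents.

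Membership changed with each choice of the rule. When each library was left out in turn, 32 (without GJ 1) to 88 members remained among the 100. With a KJ limit of 0.2 or 0.5 in place of 0.3, 63 and 48 remained, and 58 when K was left out of the parents. The number of higher genes among the 100 chosen was 56 to 84 under the settings run. It was 59 with no minimum in GJ, 57 after median-of-ratios scaling and 56 without G 1, J 2 and K 2 together. This number follows from the choice, and nothing is read from it.

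**Figure D5:**
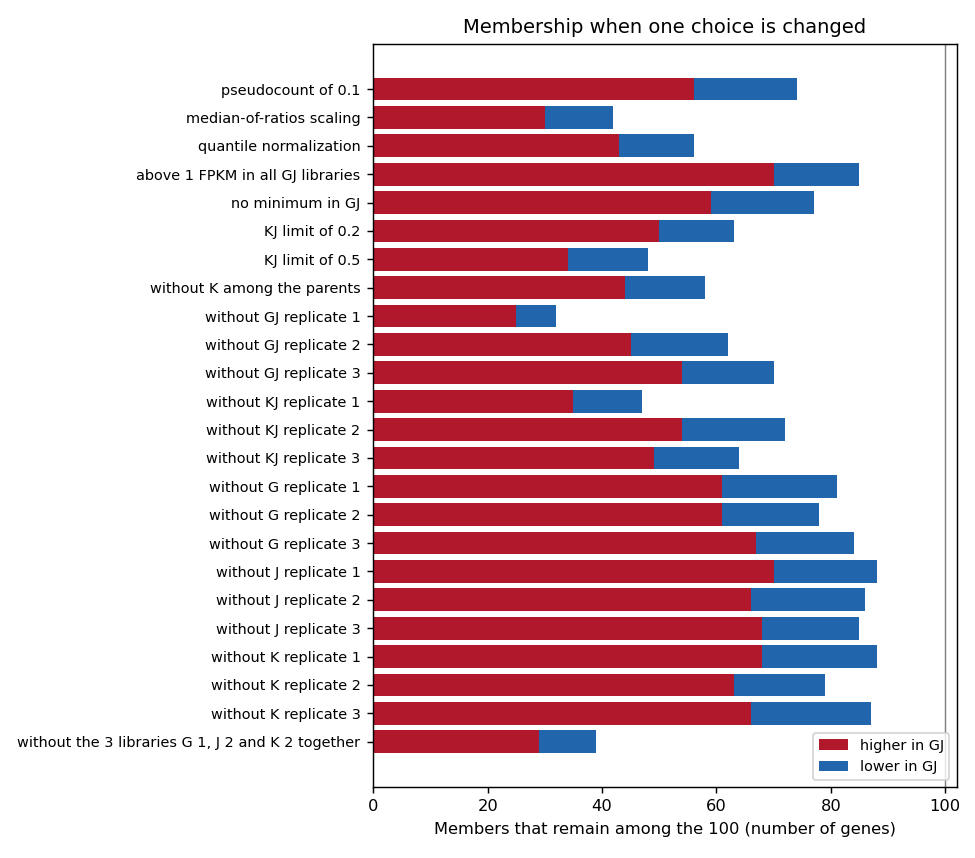
Number of the 100 members that remain among the 100 genes chosen when a single choice of the rule is changed, with red for members higher and blue for members lower in GJ. The bars run from 32 without GJ replicate 1 to 88 without J replicate 1 or K replicate 1.

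None of 9 genes that the study's text names by ID was a member or among the 1052 kept genes. They were 6 hub genes of a co-expression module and 3 genes listed under cell differentiation, which the study chose on these libraries. All 9 exceeded the limit of 0.3 in KJ, with log2 differences of 1.26 to 2.95 from the parents, against 0.61 to 2.22 in GJ. In 4 of the 9, all GJ libraries were above all parental libraries.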

How the data were processed

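Root RNA-seq libraries of 5 genotypes with 3 libraries each were analysed from the deposited table. The authors discarded reads under 25 nt or of low quality, aligned the others to the genome of K326 and deposited FPKM with 2 decimals for 69500 gene models. The paper names Tophat2 and RSEM and the submitters' processing notes HISAT2, StringTie and RSEM, with versions not given in the sources used here. Without counts, the study's DESeq2 test and counting intervals could not be computed, and precision rests on the 3 libraries per genotype. The FPKM sums would also fit TPM values of an incomplete gene set.

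Values were taken as log2(FPKM + 1). Genes that reached 1 FPKM in 3 or more libraries were fitted over all 15 libraries with limma 3.58.1 (trend and robust options, no covariate, two-sided, Benjamini-Hochberg adjustment over 37232 genes) in R 4.3.3, with calls at an adjusted p no higher than 0.05 and a log2 difference of 1 or more in either direction. Python 3.11.15, NumPy 2.4.6, pandas 2.3.3 and matplotlib 3.10.9 were used for the rest. The fit was tested on simulated data. Members, lists and tests were chosen with earlier results of these data known. Named were the 12 largest rises and 12 largest falls, the genes around rank 100, members called between parents or sharing a scaffold, the members with extreme SD in GJ and 4 called neighbours. Genes named outside this rule are marked. The alternatives were other pseudocounts, filters, scalings, limits and fits, and leaving out each library.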

Additional observations from a re-analysis of the deposited data

How the results depend on the processing

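Under the settings run, no difference of a named gene from the parents changed sign. The choice fixed this sign where libraries were left out or the pseudocount changed, so only median-of-ratios scaling and quantile normalization could alter it. In all, 48 values moved by more than the SD of their gene over the 3 GJ libraries, and 636 did not. This SD is large where GJ 1 stood apart, so Nitab4.5_0002587g0040 (SD 2.93) did not count as moved without GJ 1. The number of members called between G and J (0) was 1 with a pseudocount of 0.1, after quantile normalization and without a fold threshold, and 0 to 1 when each library was left out. Between K and G (0) it was 1 after median-of-ratios scaling and without a fold threshold, and 0 to 1 when each library was left out. Between K and J (2) it was 0 without the 3 libraries G 1, J 2 and K 2 together and 0 to 2 when each library was left out. Members called in GJ against the parents (20) were 38 with a pseudocount of 0.1, 74 without a fold threshold and 7 (without GJ 1) to 23 when each library was left out. Called neighbours (4) were 7 with a pseudocount of 0.1, 22 without a fold threshold and 1 to 6 when each library was left out. Of the 100 members, 42 remained after median-of-ratios scaling, 56 after quantile normalization, 63 and 48 with a KJ limit of 0.2 and 0.5, 58 without K, 39 without G 1, J 2 and K 2 together, and 32 to 88 when each library was left out. The cause of these changes was not tested.

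With the replicate block, 1 member was called between K and J, and no other count moved by over 1.5 times (20 members in GJ and 3 neighbours). The replicate numbers did not pair the libraries, since deviations of libraries with the same number correlated at -0.46 to 0.546 (mean -0.016) and 3 of 15 libraries correlated best with their own number.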
